A study of Mus musculus with 6 samples.

Results

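This account concerns 31 mouse genes of peroxisomal fatty acid oxidation and peroxisome assembly, taken by symbol from a table of 19764 genes, in which each of the 31 had 1 row. They comprised 16 enzymes, mostly of the peroxisome matrix, 2 transporters of the peroxisomal membrane and 13 Pex genes, whose products (peroxins) build the organelle. The cells were primary hepatocytes of Bl6/N mice, plated with corticosterone in place of dexamethasone and then starved for 16 h at 5 mM glucose. All 6 libraries came from cells given corticosterone (1 µM), which activates the glucocorticoid receptor, together with WY-14643 (10 µM), which activates PPARα, for 8 h. The 3 Control libraries also had vehicle and the 3 TNF libraries had TNF at 1 ng/ml, so no library shows these genes without the PPARα ligand. Whether a replicate was its own animal or its own culture is not stated, so the spread that the p-values measure may be technical. In the unpaired fit described below it is the spread between libraries of a group. In the blocked fit it is the spread of the changes within same-numbered pairs.

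Peroxisomes shorten very long chain, branched chain and dicarboxylic fatty acids that mitochondria handle poorly. An acyl-CoA oxidase makes hydrogen peroxide in the opening step, bifunctional enzymes hydrate and dehydrogenate the product, and thiolases split off a shortened chain that leaves as a carnitine ester or a free acid. The enzymes are made in the cytosol and imported by the peroxins, and in rodent liver many of their genes are targets of PPARα, the receptor through which WY-14643 causes peroxisomes to proliferate.

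Levels are given in CPM, reads per gene scaled to library size, and group values as mean ± SD (n = 3). A change is TNF minus Control on the log2(CPM + 1) scale. Libraries held 17612060 to 25114289 reads over genes. The chemokine gene Ccl2, a known TNF target, was at 14.7 CPM in Control and 210 CPM in TNF. Summed over 9 hepatocyte markers, levels lay between 33760 and 51150 CPM in Control and between 32800 and 48250 CPM in TNF. In the blocked limma fit described below, 4 of the 9 were lower with TNF (Apoa1, Ttr, Fgb and Hnf4a) and none higher. Of all genes tested 11.2% were lower in that fit. None of the 9 passed the unpaired limma fit. Of 8 Kupffer cell and macrophage markers Cd68 alone was tested (180 and 179 CPM); the other 7 each averaged at most 0.314 CPM in either group, with Csf1r the highest. The summed ranges in Control and TNF were 78.1 to 148.5 and 74.3 to 139 CPM for 7 endothelial markers and 17.9 to 66.9 and 19.3 to 44.8 CPM for 6 stellate markers. They were 25.3 to 34.9 and 32.4 to 54.4 CPM for 5 cholangiocyte markers, and at most 0.387 CPM for 6 lymphocyte and neutrophil markers, of which Nkg7 and Ly6g had no read. Sox9 was the cholangiocyte marker that rose. Stab2 (endothelial) and Reln (stellate) fell, but Stab2 was lost whichever pair was left out, and Reln was higher in pair 1 (0.14) and lost without replicate 2 or 3. Among the hepatocyte markers Ttr was lost without replicate 2 or 3. The part of such cells in the changes below was not tested. In bulk RNA, fewer cells of a type cannot be told apart from less RNA per cell.

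Most of the enzyme genes were modestly lower with TNF, whereas most Pex genes did not pass the test. Each gene was fitted by limma in an unpaired form, with group alone, and in a blocked form, which adds the replicate number as a term. A gene is said to have risen or fallen where the blocked form gave it an adjusted p under 0.05. In the unpaired limma fit none of the 31 genes passed, against 0.431% of the 12293 genes tested. With p under 0.05 before adjustment, that fit had 4 of the 31 lower (Scp2, Decr2, Hacl1 and Crot) and none higher, against 4.31% and 4.44% of all genes. Unpaired limma-voom also called 0 of the 31, against 0.374% of all genes. In the blocked fit 15 of the 31 fell, where 11.2% of all genes tested fell, and 1 rose, where 9.40% of all genes tested rose. The 16 calls stand against 20.6% of all genes in either direction. Blocked limma-voom gave the same counts, against 20.5%. Changes among the 31 lay between -0.50 and 0.24, and their median was -0.15 against -0.01 over all genes tested. The numbers in the titles pair the libraries, as same-numbered Control and TNF libraries deviated together across genes. The blocked SEs borrow variance across genes, so they can be smaller than the spread of a gene's pairs would give.

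**Figure D1:**
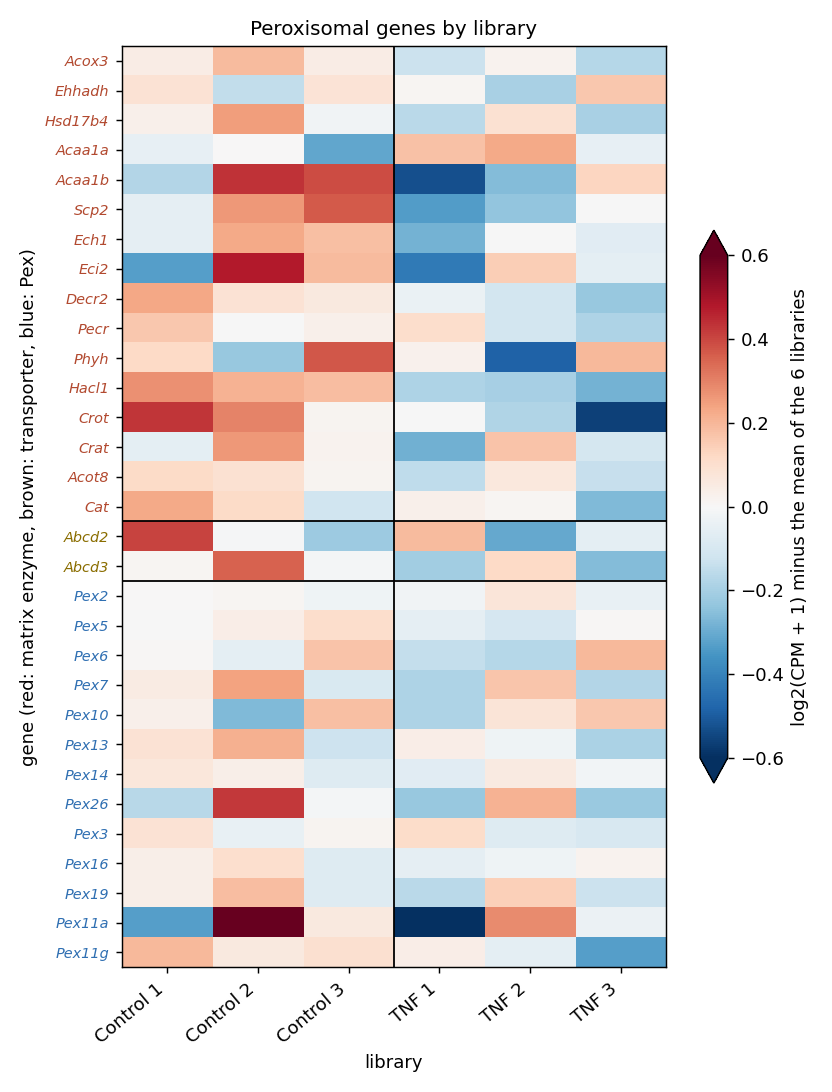
Level of each of the 31 genes (rows) in the 6 libraries (columns) as log2(CPM + 1) minus the gene's mean over the 6 libraries, with colours saturating at ±0.6. Lines divide Control from TNF and, from top to bottom, enzymes, transporters and Pex genes. Hacl1 and Crot are redder in each Control library than in any TNF library, Acaa1a is mostly redder in TNF, and Pex11a varies mostly by replicate number.

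Among genes of the opening and middle steps of the spiral, 2 of 3 fell, each by a small amount, where 11.2% of all genes tested fell. Acox3, an acyl-CoA oxidase with a known preference for branched chains, was at 33.7, 37.4 and 33.7 CPM in Control 1, 2 and 3 and at 29.8, 33.2 and 28.9 CPM in TNF 1, 2 and 3. Each TNF library was below each Control library. It fell by 0.19 (SE 0.06, adjusted p 0.0284, blocked limma), a call lost whichever pair was left out and without a filter. The antisense gene 4931431C16Rik overlaps 5704 bases of Acox3, the same number that was left uncounted. Hsd17b4, the D-bifunctional enzyme that serves branched chains and bile acid intermediates, fell from 365 ± 37.9 to 324 ± 36.1 CPM (log2 -0.17). Its changes in the 3 pairs were -0.19, -0.16 and -0.17. Ehhadh, the L-bifunctional enzyme and a classical PPARα target, was at 1742, 1478 and 1733 CPM in Control and 1652, 1433 and 1832 CPM in TNF. The groups overlapped fully, and the pairs went both ways (-0.08, -0.04 and 0.08). The blocked log2 change of Ehhadh was -0.01 with an SE of 0.04 and an adjusted p of 0.854 (limma).

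The thiolase genes, which complete the cycle, went in opposite directions. Acaa1a was the member that rose, from 123, 127 and 102 CPM in Control to 144, 149 and 123 CPM in TNF. Its groups overlapped, but the changes in the pairs were 0.22, 0.22 and 0.26 (mean log2 0.24, blocked SE 0.03, adjusted p 0.000186, limma). Acaa1b was at 101, 155 and 151 CPM in Control and at 79.3, 95.5 and 125 CPM in TNF. It was lower in every pair, by -0.35, -0.69 and -0.26, and fell by 0.44 (blocked SE 0.06, adjusted p 0.000138, limma); the SD of the 3 pair changes was 0.23. The ratio of Acaa1a to Acaa1b was 1.21, 0.822 and 0.679 in Control and 1.81, 1.56 and 0.980 in TNF, higher with TNF in 3 of 3 pairs. The groups overlapped, and the ratio, formed after both directions were known, was given no test. Scp2, whose gene encodes both a thiolase for branched chains and a sterol carrier protein, was at 405, 503 and 542 CPM in Control and 333, 357 and 420 CPM in TNF. Only TNF 3 was above the lowest Control library. Scp2 fell by 0.38 (blocked SE 0.04, adjusted p 6.62e-06, limma).

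Acaa1a and Acaa1b both lie on mouse chromosome 9 (mm10). Acaa1a is on the plus strand at 119341294 to 119350295 and Acaa1b on the minus strand at 119148043 to 119157093. Their coding sequences, taken from GENCODE release M21, had 1275 bases each and were identical at 96.5% of positions, with a longest identical run of 327 bases. Of the 50-base and 100-base windows of the Acaa1a coding sequence, 38.1% and 24.1% also occurred in an Acaa1b transcript. Reads from such stretches could be given to either gene or to neither. How the authors' counting treated them is not given in the sources used here, and both values are uncertain to that extent. The stretch of 120 bases in which the paralogs differ most, coding bases 433 to 552 of both, is shown. Further differences lie elsewhere in the coding sequences. Capitals mark the 14 positions that differ.
Acaa1a: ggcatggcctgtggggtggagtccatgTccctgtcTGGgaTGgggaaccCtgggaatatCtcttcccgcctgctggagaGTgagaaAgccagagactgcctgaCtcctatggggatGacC
Acaa1b: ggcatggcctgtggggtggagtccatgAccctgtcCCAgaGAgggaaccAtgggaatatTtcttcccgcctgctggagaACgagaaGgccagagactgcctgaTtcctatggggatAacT
In the authors' table the counted length of both genes equals their whole span, introns included. On the opposite strand, the GENCODE span of Slc22a14 covers all 9002 bases of Acaa1a, and that of Myd88 overlaps 118 of them. Dlec1, also on the opposite strand, overlaps 204 bases of Acaa1b. With the strand setting unknown, reads of Acaa1a or Acaa1b cannot be told apart from those of the genes that overlap them. The part of such reads in the changes was not tested.

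**Figure D2:**
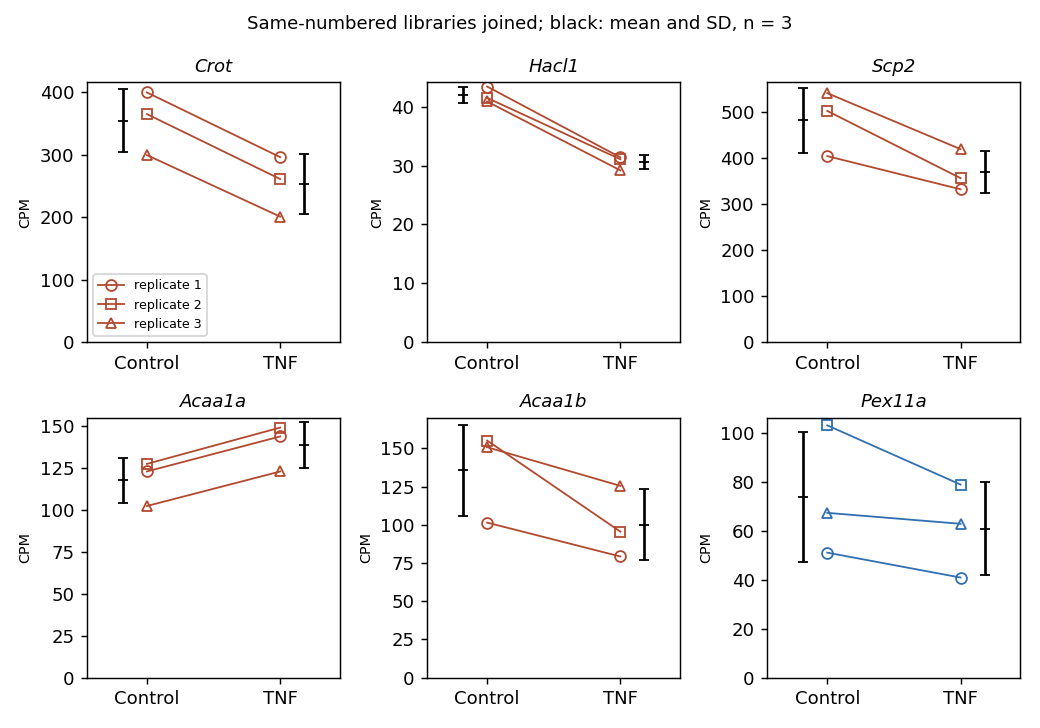
CPM of 6 genes in Control and TNF (linear axes from 0), with same-numbered libraries joined by lines and black marks giving mean ± SD of 3 libraries. Crot, Hacl1, Scp2, Acaa1b and Pex11a go down in each of the 3 pairs and Acaa1a goes up. The Control libraries of Pex11a range from 51.1 to 103 CPM.

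Of 4 further genes for enzymes that act on unsaturated acyl-CoAs 3 fell, where 11.2% of all genes tested fell. Decr2, a dienoyl-CoA reductase, was at 88.9, 80.3 and 78.7 CPM in Control and 73.6, 70.0 and 64.4 CPM in TNF. The groups did not overlap, and Decr2 fell by 0.25 (blocked SE 0.04, adjusted p 0.000475, limma). Ech1, a dienoyl-CoA isomerase, fell from 142 ± 14.5 to 120 ± 12.1 CPM, with nearly equal changes of -0.23, -0.23 and -0.25 in the 3 pairs. Eci2, an enoyl-CoA isomerase, was at 104, 182 and 149 CPM in Control and 97.2, 145 and 125 CPM in TNF. Its libraries differed more by replicate number than by treatment, and it fell by 0.22 within pairs (-0.09, -0.33 and -0.25). Pecr, an enoyl-CoA reductase, was at 27.2 ± 1.70 and 24.9 ± 2.75 CPM (log2 -0.13) and did not pass in the blocked limma fit (adjusted p 0.194).

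Both α-oxidation enzymes fell, where 11.2% of all genes tested fell. The α-oxidation route removes 1 carbon from phytanic acid and other branched chains before β-oxidation can start. Hacl1, the lyase that cleaves the hydroxylated intermediate, was at 43.4, 41.5 and 40.9 CPM in Control and at 31.4, 31.1 and 29.2 CPM in TNF. The groups were well apart, and the replicates of each group lay close together. Hacl1 fell by 0.44 (blocked SE 0.05, adjusted p 3.53e-05, limma), and its unpaired adjusted p was 0.0716. GENCODE also lists the gene Gm49387 on the same strand across nearly the whole span of Hacl1 (chromosome 14, 31607226 to 31640965). Phyh, the phytanoyl-CoA hydroxylase, was at 198, 156 and 236 CPM in Control and 185, 130 and 208 CPM in TNF. Replicate 2 was lowest in both groups, and Phyh fell by 0.18 within pairs (-0.10, -0.26 and -0.18; blocked adjusted p 0.00290, limma).

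Of 3 genes for product export 2 fell, where 11.2% of all genes tested fell. Crot, the carnitine octanoyltransferase that hands shortened chains on for transport to mitochondria, was at 399, 365 and 299 CPM in Control and at 296, 261 and 201 CPM in TNF. Every TNF library was below every Control library, TNF 1 only just below Control 3, and the mean level fell by 28.7%. The log2 changes in the pairs were -0.43, -0.48 and -0.57, with an adjusted p of 1.93e-07 blocked and 0.387 unpaired (limma). Crot lies on chromosome 5 (8966048 to 8997146, minus strand). Crat, the acetyltransferase that is shared with mitochondria, fell by 0.15 (59.5 ± 7.15 to 53.9 ± 8.94 CPM), a call lost whichever pair was left out, under median-of-ratios scaling and without a filter on low counts. The thioesterase Acot8, which frees acids from their CoA esters, was at 29.9 ± 1.08 and 27.0 ± 2.39 CPM (log2 -0.15) and did not pass (blocked adjusted p 0.130, limma).

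Catalase (Cat), which breaks down the hydrogen peroxide made by the oxidases, fell from 1770 ± 212 to 1597 ± 179 CPM (log2 -0.15, blocked adjusted p 0.00932, limma). Its adjusted p (blocked limma) was 0.0944 without replicate 1 and 0.0624 without a filter on low counts. Of the transporters that carry acyl-CoAs into the organelle, Abcd3 was at 372, 473 and 366 CPM in Control and 319, 402 and 308 CPM in TNF. The groups overlapped, but the changes in the pairs were close to each other (-0.22, -0.23 and -0.25), and Abcd3 fell by 0.23 (adjusted p 6.74e-05, blocked limma). For Abcd2 the Control libraries held 18, 12 and 6 reads, and those with TNF 15, 4 and 9. At this depth no difference was detectable (log2 -0.12, SE 0.15). The added 1 CPM shrinks this value, and blocked limma-voom gave -0.35 with an SE of 0.39.

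**Figure D3:**
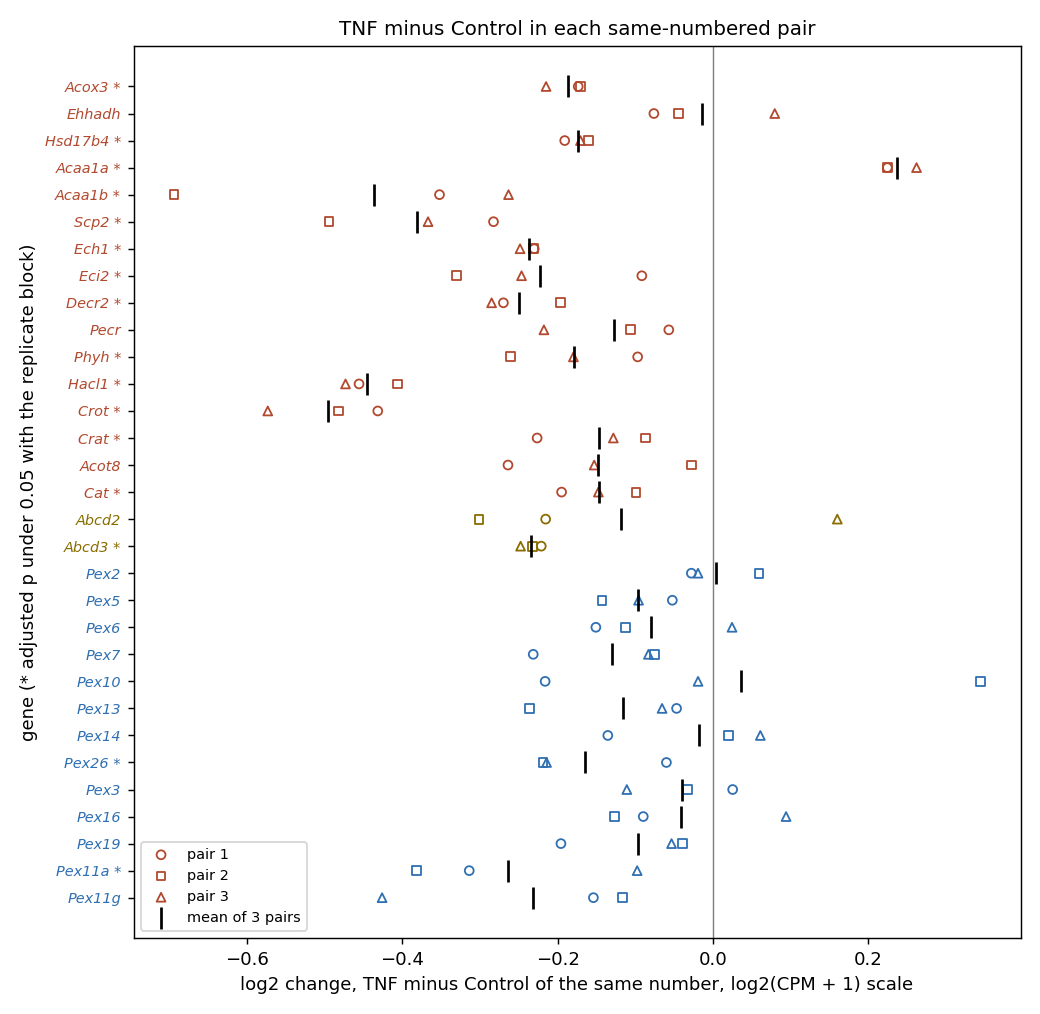
Log2 change of TNF minus Control in each same-numbered pair (open symbols) and their mean (black bar) for the 31 genes, in red for enzymes, brown for transporters and blue for Pex genes; asterisks mark an adjusted p under 0.05 in the blocked limma fit. For 14 of 16 enzymes all 3 pairs lie below 0, against 7 of 13 Pex genes.

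Of the 13 peroxin genes 2 fell and none rose, a share near the 11.2% of all genes tested that fell. Among those of matrix protein import, Pex26, which anchors the export ATPase complex to the membrane, was at 39.6, 60.2 and 44.2 CPM in Control and 37.9, 51.6 and 38.0 CPM in TNF. Replicate 2 stood above the others in both groups. Pex26 fell by 0.16 (blocked SE 0.05, adjusted p 0.0383, limma), a call lost without replicate 2 or 3 or without a filter (adjusted p 0.221, 0.153 and 0.0850). The cargo receptor genes Pex5 and Pex7 were at 140 ± 5.17 and 131 ± 5.05 CPM (log2 -0.10) and at 46.7 ± 5.57 and 42.7 ± 6.24 CPM (log2 -0.13). Both were lower in 3 of 3 pairs, but neither passed the blocked limma fit (adjusted p 0.0681 and 0.0984). The docking genes Pex13 and Pex14 had log2 changes of -0.12 and -0.02, the ubiquitin ligase genes Pex2 and Pex10 of 0.00 and 0.04, and the ATPase gene Pex6 of -0.08. None of these 5 passed the blocked or unpaired limma fit or limma-voom, and Pex6 reached 0.0474 (adjusted p, blocked limma) once replicate 3 was left out. GENCODE lists the gene Gm26904 on the same strand across all 14079 bases of Pex6.

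No gene for the insertion of membrane proteins passed the test. Pex3, Pex16 and Pex19 had log2 changes of -0.04, -0.04 and -0.10, and none passed the blocked limma fit (adjusted p 0.741, 0.671 and 0.134). Of the genes that act in elongation and division, Pex11a is known as the PPARα-inducible form. It was at 51.1, 103 and 67.4 CPM in Control and at 40.9, 78.9 and 62.9 CPM in TNF. Control 2 held more than either other Control library, and TNF 2 likewise more than the other TNF libraries. Pex11a fell by 0.26 within pairs (-0.31, -0.38 and -0.10; blocked adjusted p 0.00240, limma), and its unpaired adjusted p was 0.964. Pex11g was at 13.4, 12.1 and 12.5 CPM in Control and at 12.0, 11.1 and 9.02 CPM in TNF. Its groups did not overlap, but it did not pass the blocked fit (log2 -0.23, SE 0.09, adjusted p 0.102, limma).

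Set against each other, 12 of 16 enzymes and 2 of 13 Pex genes fell in the blocked fit, where 11.2% of all genes tested fell. The median log2 change was -0.18 for the enzymes and -0.10 for the Pex genes. In the 3 pairs the medians were -0.21, -0.18 and -0.22 for the enzymes and -0.14, -0.11 and -0.07 for the Pex genes, so the enzymes were lower in each pair. Libraries did not overlap, with TNF lower, for 4 of 16 enzymes and 1 of 13 Pex genes, against 6.66% of all genes tested. All 3 pairs were lower for 14 enzymes and 7 Pex genes, against 27.7% of all genes tested. The enzymes also carried more reads, with a median of 2650 per library against 1016 for the Pex genes, and had smaller blocked SEs (median 0.04 against 0.05). The part of depth in the difference between these counts was not tested, and no test of the difference between the classes was made.

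**Figure D4:**
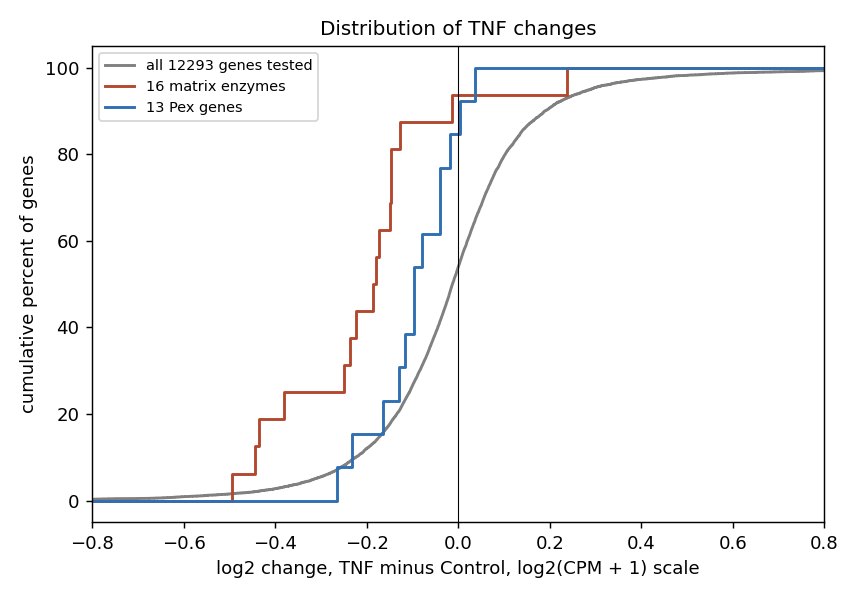
Cumulative percent of genes (y) at or below a given log2 change of TNF minus Control (x) for 16 enzymes, 13 Pex genes and all 12293 genes tested. The enzyme curve lies to the left (median -0.18), the Pex curve between it and all genes (median -0.10), and the curve of all genes crosses its middle near 0 (median -0.01).

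**Figure D5:**
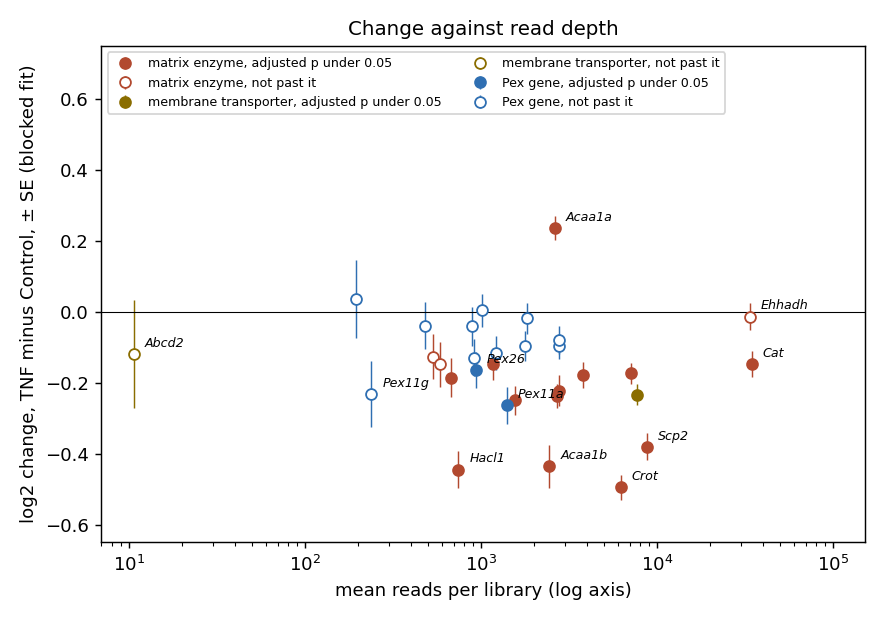
Log2 change of TNF minus Control with its SE in the blocked limma fit (y) against mean reads per library (x, log axis) for the 31 genes; filled symbols have an adjusted p under 0.05. Abcd2 has the fewest reads and a wide SE, and Ehhadh, among the most deeply read, lies near 0.

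Differences between replicates were larger than the TNF change for most members. In 25 of 31 genes the range of the 3 Control libraries exceeded the size of the TNF change on the log2 scale. Much of that spread was shared within pairs, less clearly so for the Pex genes. The same replicate number was highest in both groups for 25 of 31 genes, and lowest in both for 20. By class, it was highest in both for 13 of 16 enzymes and 10 of 13 Pex genes. It was lowest in both for 14 of 16 enzymes and 5 of 13 Pex genes. Pex11a had the widest Control range (log2 1.00), followed by Eci2 (0.81), Abcd2 (0.63), Acaa1b (0.61), Phyh (0.60) and Pex26 (0.59). Their orders differed, since replicate 2 was highest for Pex11a, Eci2, Acaa1b and Pex26 in Control but lowest for Phyh.

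Of 52 other genes of the organelle, 49 were tested, and 20 fell and 4 rose in the blocked fit, where 11.2% of all genes tested fell and 9.40% rose. Their median log2 change was -0.12. Among 18 further genes of fatty acid handling 10 fell and 2 rose. Among those that fell were the acyl-CoA synthetase and fatty acid transporter Slc27a2 (log2 -0.79), Baat, which conjugates bile acids to amino acids (log2 -0.77, 42.6 to 25.1 CPM), and the acyl-CoA synthetase Acsl1 (log2 -0.45). Among 14 oxidases and enzymes of amino acid or purine breakdown 5 fell, including urate oxidase (Uox, log2 -0.41, 358 to 267 CPM), the epoxide hydrolase Ephx2 (log2 -0.32) and the reductase Dhrs4 (log2 -0.28). Of 9 genes for membrane proteins, fission and proteases 4 fell and 1 rose, including the membrane protein Pxmp4 (log2 -0.43, 80.1 to 59.0 CPM), the matrix protease Tysnd1 (log2 -0.32) and the membrane channel Pxmp2 (log2 -0.32). Pxmp2 passed under 6 of 10 blocked alternatives, with an adjusted p (limma) of 0.278 without replicate 1 and 0.143 without replicate 3. Of 5 ether lipid synthesis genes, Far1, which makes fatty alcohols, rose (log2 0.46, 2.26 to 3.46 CPM), Tmem189 fell (log2 -0.20) and 3 did not pass. Far1 was lost without replicate 2 or 3 (blocked limma, adjusted p 0.0853 and 0.0749), and Tmem189 without replicate 2 (0.174).

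Of 17 mitochondrial β-oxidation genes 9 fell and 2 rose in the blocked fit, against the same 11.2% and 9.40% of all genes, and their median log2 change was -0.11. The 9 is the upper end of a range of 6 to 9 over 10 blocked alternatives, with 6 without replicate 2, without replicate 3 or without a filter. Cpt1a, which admits long chains to mitochondria, changed by -0.26, the dehydrogenase Acadm by -0.25 and Etfdh, which passes electrons to ubiquinone, by 0.19. Whether mitochondrial and peroxisomal enzymes differed in response was not tested. Of the regulators, the PPARα partner Rxra fell (log2 -0.42), while Ppara (log2 0.09), the coactivator Ppargc1a (-0.16) and the glucocorticoid receptor gene Nr3c1 (-0.07) did not pass the blocked limma fit (adjusted p 0.117, 0.382 and 0.235).

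PPARα binds with RXR to a direct repeat of half-sites, searched here as AGGTCANAGGTCA on both strands from 250 bases before to 50 after the start of each gene in RefSeq's GRCm38.p6 annotation. Such windows were found for 26 of the 31 members (30 windows, as some genes have several starts). None held an exact match, and 1 window, that of Cat, matched with at most 2 mismatches among the 12 fixed letters, against 3.86% of 32851 windows of all genes. The half-site AGGTCA was in 4 of the 30 windows and in 16.3% of all, and it overlaps the repeat by construction. Among 12157 windows of tested genes the shares were 3.21% for the repeat with at most 2 mismatches and 13.05% for the half-site. The Cat stretch (chr2:103485154-103485403, minus strand) is shown as the only member with such a match, in capitals at bases -204 to -192 from the start.
Cat: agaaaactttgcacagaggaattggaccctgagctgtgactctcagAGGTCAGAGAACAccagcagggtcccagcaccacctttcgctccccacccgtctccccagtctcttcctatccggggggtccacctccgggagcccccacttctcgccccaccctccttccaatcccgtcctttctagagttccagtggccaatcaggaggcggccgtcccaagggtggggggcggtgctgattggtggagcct
A match of letters does not show a binding site, and windows without one say nothing of sites elsewhere.

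In the authors' deposited table, 16 of the 31 members were lower and 1 higher at an adjusted p under 0.05, where 23.6% of the genes tested here passed in either direction. The 16 included each of the 15 that fell in the blocked fit, and Pex11g, with an adjusted p of 0.0381 in the authors' deposited table. The higher one was Acaa1a.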

How the data were processed

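PolyA RNA of 6 libraries was sequenced in pairs of reads. Reads were aligned with STAR 2.6.1a to mm10, per the submitters' processing notes; the sources used here do not give how reads were counted, or whether by strand. The authors deposited log2 CPM values with a prior count, shared floor -3.35, and beside them fold changes and p-values from a model that is not stated. With the floor subtracted on the linear scale, each library's values (100%) came out as whole reads within a relative tolerance of 1e-06, which gave CPM. A count of 0 allows up to 3 reads, 0.124 to 0.166 CPM (counting error only). The counted length equalled the gene span in 85.0% of genes. GENCODE genes also overlap members other than those for which an overlap is named here.

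A gene was tested with at least 10 reads (at median library size) in 3 libraries and 15 in all: 12293 were tested, among them all 31 members, and 7471 were not. Limma 3.58.1 (R 4.3.3) with a trended prior variance was run on log2(CPM + 1), which understates changes of low genes, two-sided, with Benjamini-Hochberg adjustment over all genes tested. The fit was also run on simulated counts with the same dispersion for all genes, and no support is drawn from that run. Deviations from group means correlated at 0.784, 0.789 and 0.793 for same-numbered libraries and from -0.472 to -0.335 for others, so the numbers were taken to pair the samples; only the titles and these correlations speak for it, since no shared animal or day is named. No libraries were duplicates (chi-square over degrees of freedom at least 14.9). Named genes were all 31 members, the 3 largest changes per other list past the blocked threshold and alike in every pair, 4 regulators and Ccl2; Nfkbia was also listed (log2 0.93). Other names were chosen after their values were seen. Members and lists were chosen with earlier results of these data known. Alternatives were other scalings, filters and pseudocounts, limma-voom, and leaving out libraries or pairs. Values of some single genes outside the 31 are not reported here.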

Additional observations from a re-analysis of the deposited data

How the results depend on the processing

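With the replicate block the count of all genes called went from 53 to 2530 (2520 by limma-voom), of the 31 members from 0 to 16 (16), of enzymes that were lower from 0 to 12 (12), of lower Pex genes from 0 to 2 (2), of lower other peroxisomal genes from 0 to 20 (20) and of lower mitochondrial genes from 0 to 9 (9). Without a filter the unpaired fit called 31 genes, and leaving out 1 library gave 9 to 30, with fewer samples; none of the 31 members was called in any of 13 unpaired alternatives. Over 10 alternatives with the block, 12 to 16 members were called, and 9 to 12 enzymes and 1 to 2 Pex genes were lower. Of the 16 members called, 12 (11 lower and Acaa1a) passed in each. Blocked fits with a pair left out rest largely on variance borrowed across genes, so passing them adds little. For Crot the adjusted p (blocked limma) was 7.2e-21 without replicate 1, against 1.93e-07 with all pairs. The lower Pex count was 1 without a filter and without replicate 2. Acox3, Crat, Cat and Pex26 were lost in some; the cause was not tested.

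The enzymes' median was -0.26 to -0.15 with a library left out and -0.21 with the block without replicate 1; that of the Pex genes was -0.10 to -0.039 with a library left out. In the unpaired fit the sign turned for these genes, here with the range over single libraries left out: Ehhadh without Control 1 (0.027), Control 3 (0.024) or TNF 2 (-0.097 to 0.080), Phyh without TNF 2 (-0.34 to 0.019), Abcd2 without TNF 2 (0.0061) or Control 1 (-0.26 to 0.055), Pex2 without Control 3 (-0.0072) or TNF 2 (-0.032 to 0.027), Pex10 without TNF 3 (-0.035) or Control 2 (-0.087 to 0.14), Pex14 without Control 1 (0.011) or TNF 1 (-0.060 to 0.012), Pex26 without Control 2 (-0.31 to 0.00762) and Pex11a without Control 2 (-0.50 to 0.0035). With the block it turned for Ehhadh without replicate 2 (0.0018) or 1 (-0.060 to 0.018), Pex2 without 2 (-0.024 to 0.020), Pex10 without 2 (-0.12 to 0.16), Pex14 without 1 (-0.057 to 0.041) and Pex16 without 2 (-0.11 to 0.0022). The cause was not tested. Depth limits Abcd2, with at most 18 reads per library.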
